A study of Mus musculus with 12 samples.

Results

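The VEGF and FGF ligands are secreted growth factors that drive the growth of blood vessels, and brivanib is an inhibitor of the kinases of their receptors. The 10 ligand genes followed here were Vegfa, Vegfb, Vegfc, Pgf, Fgf1, Fgf2, Fgf7, Fgf10, Fgf13 and Fgf18, taken by gene name from the 53801 genes of the deposited table, with the FPKM values of all transcripts of a gene summed. FPKM counts fragments relative to the length of a transcript and to a scaling total of its library, so levels can be set beside each other between genes. All 10 were found, 4 of the VEGF family and 6 of the FGF family. Of these, 6 had a mean of at least 1 FPKM over the 12 libraries, the minimum for a test, as did 14246 genes in all.

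The libraries came from tumours of Lewis lung carcinoma (LLC) cells, a mouse lung cancer line, grown in Matrigel in both flanks of female C57BL/6 mice of 6 to 8 weeks. The 4 groups of 3 libraries each received vehicle, cisplatin, brivanib or cisplatin with brivanib (the combination), injected into the peritoneum 2 times per week for 4 weeks, starting at a tumour size of 100 mm3. The labels give no doses, and they name 6 mice and 10 to 12 tumours a group without tying a library to an animal, so libraries of a group may share a mouse, and the spread behind the p-values is that between these libraries and may be technical. Cisplatin is a platinum drug that damages DNA. As models the tumours rest on 1 transplanted line, while vessels, fibroblasts and immune cells come from the host.

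VEGF-A acts through the receptor Kdr on endothelial cells and is induced by low oxygen through hypoxia-inducible factors. VEGF-B and placental growth factor (Pgf) bind the receptor Flt1, and VEGF-C acts mainly through Flt4 on lymphatic vessels. Most FGF ligands bind heparan sulfate and one of the Fgfr kinases, while Fgf13 is not secreted and binds sodium channels inside the cell.

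The recovered depth was 17.161 to 30.943 M fragments per library, M being 1e6. Brivanib 5 stood apart: ribosomal-like features took 38.087% of its fragments, against 0.296% to 0.643% in the other 11 libraries. Its FPKM values were scaled to 21.021 M fragments, fewer than the 30.943 M recovered. They summed to 921510, against 471828 to 527657 in the other libraries. Without the ribosomal-like features brivanib 5 held 19.158 M fragments, against 17.106 to 22.728 M in the other libraries. The skeletal muscle marker score, the mean log2(FPKM + 1) of 14 genes, was highest in the libraries brivanib 3 (4.20) and brivanib 5 (3.98), followed by combination 2 (2.30), cisplatin 1 (1.55) and cisplatin 3 (1.32), against 0.372 to 0.466 in the other libraries. The summed FPKM of the same markers was 15.4 to 21.4 in vehicle, 16.3 to 53.6 in cisplatin, 19.3 to 366.7 in brivanib and 25.1 to 90.2 in the combination, and Myh1, Myh2, Myh4, Myl1, Pvalb and Mb were at 0 in all vehicle libraries. Comparisons with the brivanib group were also made without brivanib 3 and 5, and values of some named genes there are given beside them. That leaves brivanib 2 alone in its group, so only the sizes of differences with their SE are given there. In such bulk samples fewer cells of a type and less RNA per cell cannot be told apart.

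Vegfb was the highest of the ligands, with a mean of 47.4 FPKM over the 12 libraries, followed by Vegfa at 20.6 and Vegfc at 12.0. Vegfb was above Vegfa in 12 of 12 libraries, and Vegfa was above Vegfc in 10, the exceptions being cisplatin 3 and brivanib 3. Pgf (5.01) was above Fgf1 (3.45) in 6 of 12 libraries, so their order was not set. Fgf1 was above Fgf7 (2.47) in 10 of 12 libraries, and Fgf7 was above Fgf2 in 12. The 4 lowest, not tested, were Fgf2 at 0.664, Fgf18 at 0.250, Fgf13 at 0.0987 and Fgf10 at 0.0343 FPKM.

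**Figure D1:**
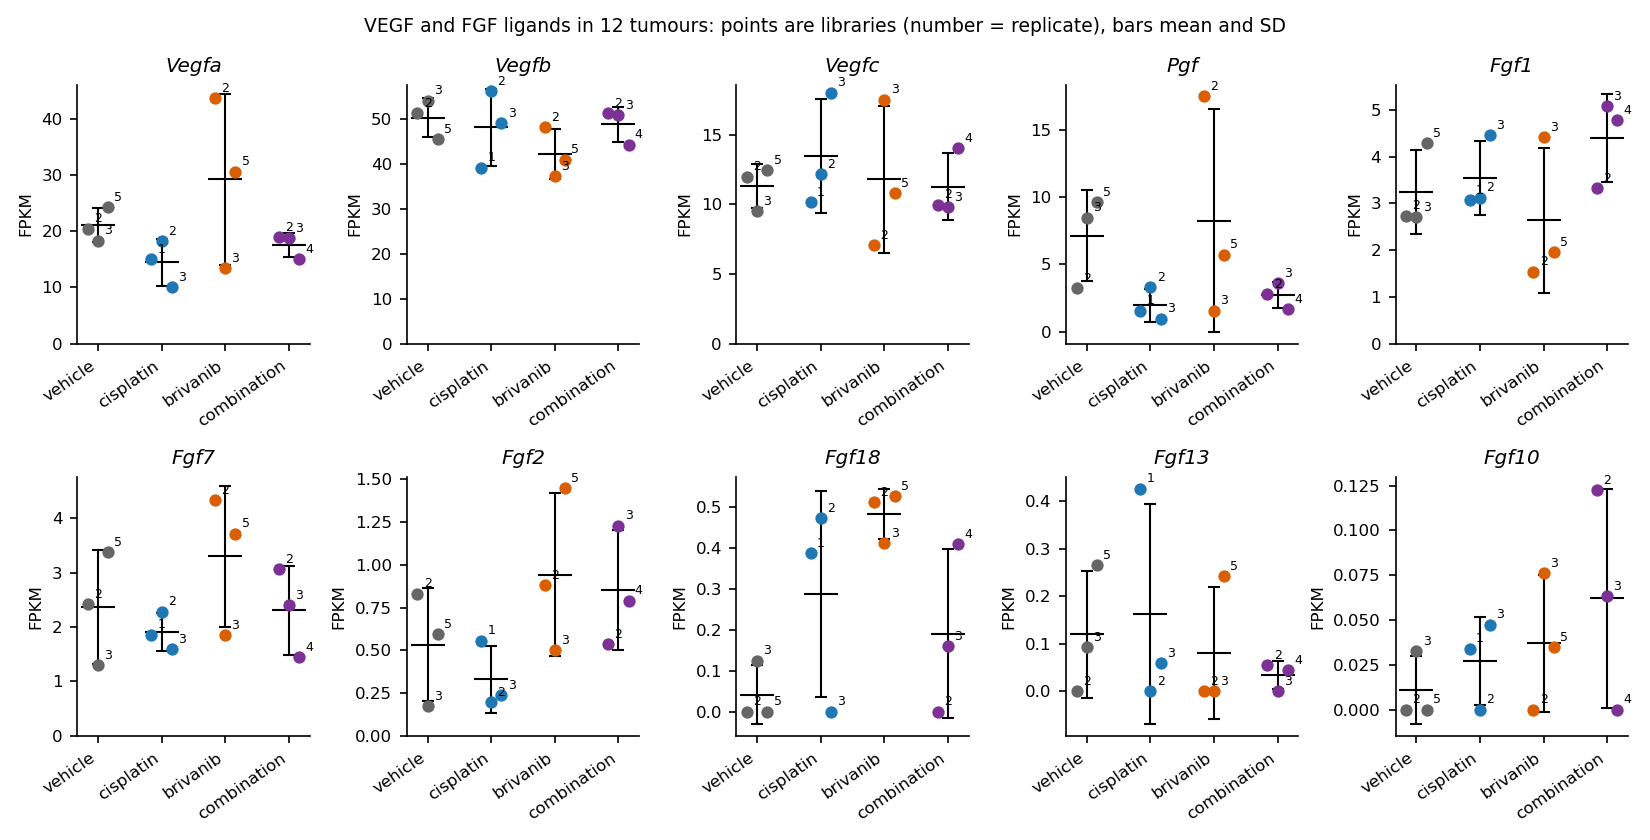
FPKM of the 10 ligands by group. Each point is a library with its replicate number, and the horizontal and vertical bars are the mean and SD of 3 libraries. Vegfa and Pgf spread most widely in brivanib, from 13.4 to 43.7 and from 1.56 to 17.5 FPKM, and Vegfb stays between 37.3 and 56.2.

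Vegfa, the main angiogenic ligand (ENSMUSG00000023951, GRCm38 chromosome 17, 46016993 to 46032369, minus strand), was at 20.5, 18.4 and 24.4 FPKM in vehicle 2, 3 and 5. It was at 15.1, 18.3 and 10.0 FPKM in cisplatin 1, 2 and 3, at 43.7, 13.4 and 30.6 in brivanib 2, 3 and 5, and at 19.0, 18.8 and 15.01 in combination 2, 3 and 4. All cisplatin libraries lay below all vehicle libraries, though by a small margin, while brivanib held both 2 of the highest values and 1 of the lowest. How many of all genes had cisplatin and vehicle apart in this way was not counted. The log2 fold change, on the log2(FPKM + 1) scale as all below, was -0.54 ± 0.34 (SE) for cisplatin against vehicle (limma adjusted p = 0.495) and 0.32 ± 0.34 for brivanib against vehicle (adjusted p = 0.779). Without brivanib 2 the latter was -0.039, and without brivanib 3 it was 0.78 ± 0.23 (limma adjusted p = 0.162).

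Vegfa makes proteins that differ in their heparin-binding part, which exons 6 and 7 encode. The coding sequences around these exons are shown because the deposited transcripts divide by them. Capitals mark exon 6 (chr17:46022277-46022348, 72 bases) and exon 7 (chr17:46020991-46021122, 132 bases), and lower case marks the last 18 bases of exon 5 and the first 18 of exon 8, all on the minus strand of GRCm38 from GENCODE M21 transcripts.
Long form: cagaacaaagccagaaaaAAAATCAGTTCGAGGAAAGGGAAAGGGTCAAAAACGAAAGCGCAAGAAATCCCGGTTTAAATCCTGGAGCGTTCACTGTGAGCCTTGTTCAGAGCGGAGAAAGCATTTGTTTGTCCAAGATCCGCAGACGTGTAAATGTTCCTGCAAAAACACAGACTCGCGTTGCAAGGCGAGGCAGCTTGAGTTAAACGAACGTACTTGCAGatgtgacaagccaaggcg
Middle form: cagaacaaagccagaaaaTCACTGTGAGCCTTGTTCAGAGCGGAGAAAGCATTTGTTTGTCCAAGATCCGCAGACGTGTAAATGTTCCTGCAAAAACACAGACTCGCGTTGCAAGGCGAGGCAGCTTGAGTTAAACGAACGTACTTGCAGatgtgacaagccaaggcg
Short form: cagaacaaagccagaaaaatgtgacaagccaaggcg

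The short form, which skips both exons, made up 8.38% to 60.89% of Vegfa FPKM (median 50.45%), the middle form, which skips exon 6, 11.32% to 62.66% (median 19.19%) and the long form 0% to 20.94% (median 5.33%). The short form was at 9.71, 9.84 and 9.52 FPKM in vehicle, 8.27, 2.51 and 5.11 in cisplatin, 26.2, 6.16 and 15.3 in brivanib and 10.1, 1.57 and 9.14 in the combination. Cisplatin 2 and combination 3 stood apart, with the short form at 13.71% and 8.38% and the middle form at 50.28% and 62.66%. In the other libraries of both groups the short form was at 51.09% to 60.89%. The main transcript of the short form (146 codons) also starts downstream of that of the middle form (368 codons), so the authors' estimates divide fragments by start as well as by exon. Transcripts annotated as retained introns made up 16.64% to 32.96%. Brivanib 2, with the highest total, held 26.2 FPKM of the short form and 5.42 of the middle form, against means of 9.69 ± 0.157 and 4.40 ± 2.71 in vehicle (SD, n = 3).

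**Figure D2:**
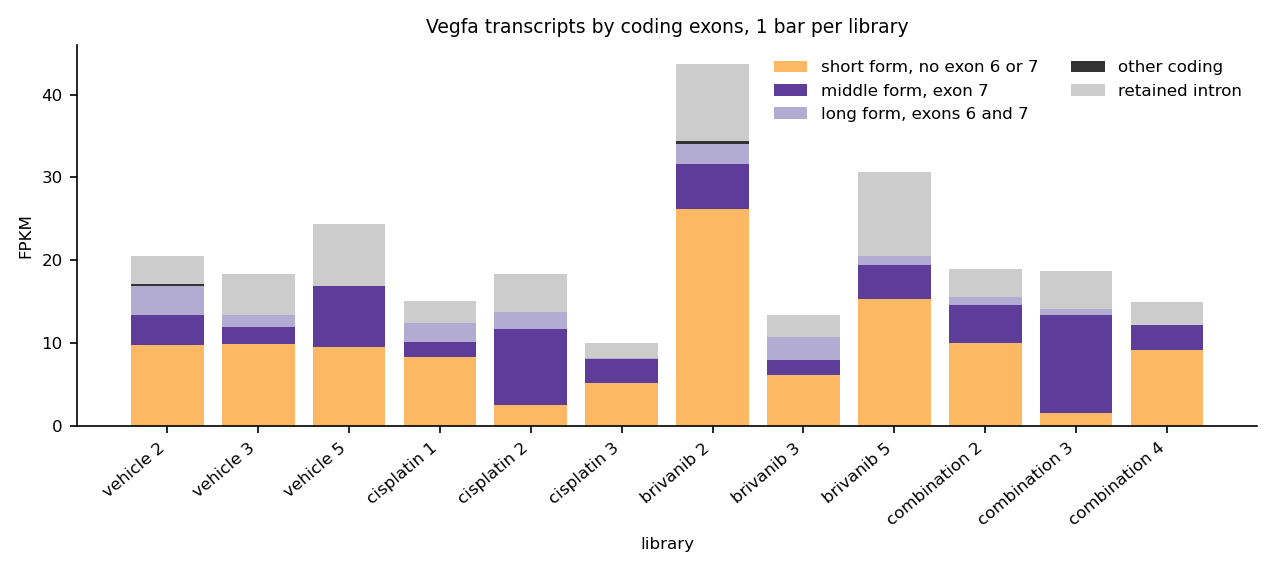
Vegfa FPKM of each library, stacked by transcript form. The short form is the largest coding part in 10 of 12 libraries, and the middle form in cisplatin 2 and combination 3.

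Vegfb, a ligand of Flt1 linked to fatty acid uptake (ENSMUSG00000024962, chromosome 19, 6982473 to 6987651), varied least among the tested ligands. It was at 51.3, 54.1 and 45.6 FPKM in vehicle, 39.2, 56.2 and 49.1 in cisplatin, 48.3, 37.3 and 41.0 in brivanib and 51.2, 50.8 and 44.3 in the combination. All groups overlapped. Brivanib against vehicle was -0.25 ± 0.14 (limma adjusted p = 0.528), with a 95% interval of -0.56 to 0.05, and -0.056 ± 0.19 without brivanib 3 and 5. Of its coding transcripts, the shorter made up 49.7% (brivanib 3) to 67.0% (cisplatin 2) of Vegfb FPKM, the rest being almost all in the longer.

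Vegfc, the main lymphangiogenic ligand (ENSMUSG00000031520, chromosome 8, 54077606 to 54187096), was at 12.0, 9.52 and 12.5 FPKM in vehicle, 10.1, 12.2 and 18.03 in cisplatin, 7.07, 17.5 and 10.8 in brivanib and 9.98, 9.81 and 14.0 in the combination. The 2 highest values were cisplatin 3 and brivanib 3, the libraries with the lowest Vegfa, and the lowest was brivanib 2, with the highest. Its fold changes lay between -0.22 and 0.20 in the 5 comparisons of groups, each with a group overlap.

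Pgf, which binds Flt1 and is known from placenta and tumour vessels (ENSMUSG00000004791, chromosome 12, 85166635 to 85177790), was at 3.26, 8.49 and 9.63 FPKM in vehicle, 1.57, 3.33 and 0.962 in cisplatin, 17.5, 1.56 and 5.74 in brivanib and 2.78, 3.62 and 1.70 in the combination. The recovered fragments behind these values were 33 in cisplatin 3 to 565 in brivanib 2. Vehicle 2 overlapped with cisplatin 2, and otherwise vehicle was higher. The difference was -1.43 ± 0.60 for cisplatin against vehicle, with an unadjusted limma p of 0.0338 and an adjusted p of 0.296. The 95% interval ran from -2.74 to -0.13, and in 30 alternatives of the processing the value ran from -1.85 to -1.07 with adjusted p from 0.114 to 0.597. For the combination against vehicle the value was -1.06 ± 0.60 (limma adjusted p = 0.373).

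Fgf1, an acidic FGF that can bind all Fgfr kinases (ENSMUSG00000036585, chromosome 18, 38838673 to 38929404), was at 2.74, 2.71 and 4.29 FPKM in vehicle, 3.06, 3.12 and 4.46 in cisplatin, 1.54, 4.41 and 1.95 in brivanib and 3.33, 5.07 and 4.78 in the combination. Brivanib 2 and 5 held the lowest values and brivanib 3 overlapped with the combination. The combination against brivanib gave 0.64 ± 0.27, with an unadjusted limma p of 0.0385 and an adjusted p of 0.202.

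Fgf7, a stromal ligand of the epithelial form of Fgfr2 (ENSMUSG00000027208, chromosome 2, 126034658 to 126091185), was at 2.43, 1.30 and 3.38 FPKM in vehicle, 1.86, 2.28 and 1.60 in cisplatin, 4.34, 1.85 and 3.72 in brivanib and 3.07, 2.40 and 1.45 in the combination. All groups overlapped, and its fold changes lay between -0.36 and 0.35.

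Fgf2, a basic FGF and a classical angiogenic factor (chromosome 3, 37348346 to 37410108, plus strand), was at 0.832, 0.175 and 0.593 FPKM in vehicle, 0.557, 0.195 and 0.236 in cisplatin, 0.879, 0.499 and 1.45 in brivanib and 0.538, 1.23 and 0.791 in the combination. The fragments behind them were 117, 1 and 68 in vehicle, 49, 5 and 6 in cisplatin, 8, 10 and 105 in brivanib and 70, 81 and 85 in the combination. Libraries of 1 group thus differed widely, from 1 fragment to 117 in vehicle. The exons of Fgf2 share 640 bases with Nudt6, a gene on the opposite strand, and no strand setting is given in the sources used here, so the split between them is uncertain. Fragments of Nudt6 were 74, 75 and 64 in vehicle, 123, 83 and 114 in cisplatin, 58, 87 and 70 in brivanib and 130, 142 and 92 in the combination. The sum of both genes was 66 (brivanib 2) to 223 (combination 3).

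**Figure D3:**
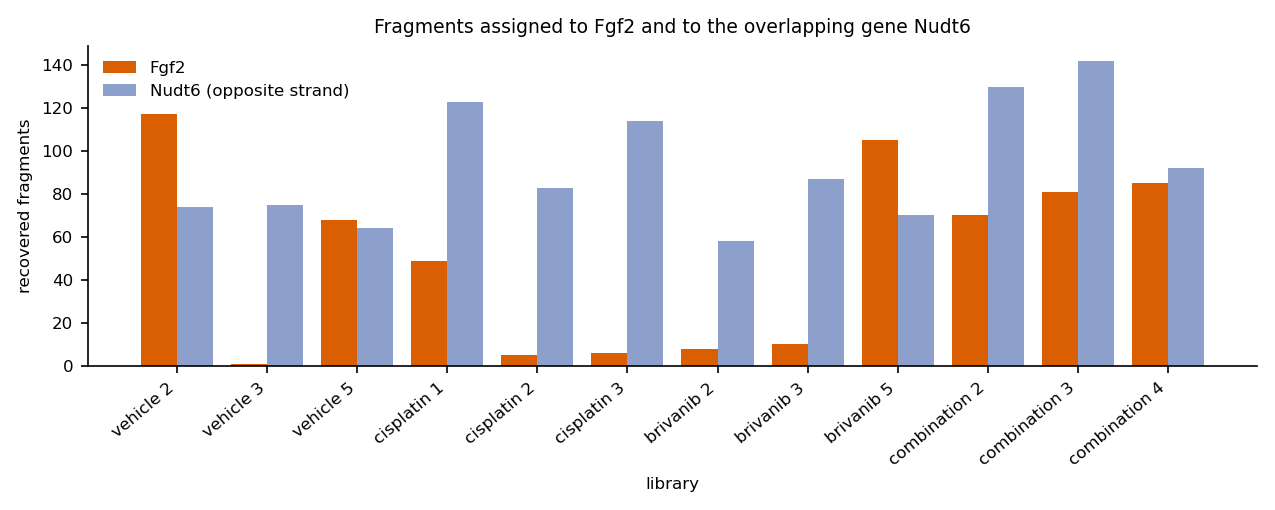
Recovered fragments of Fgf2 and of Nudt6, which overlaps it on the opposite strand, in each library. Fgf2 goes from 1 (vehicle 3) to 117 (vehicle 2), and Nudt6 from 58 (brivanib 2) to 142 (combination 3).

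Fgf18, a ligand known from bone and lung growth (chromosome 11, 33117430 to 33147400), had fragments in all brivanib libraries: 12, 10 and 12, which was 0.511, 0.412 and 0.526 FPKM. Vehicle held 0, 3 and 0 fragments, cisplatin 9, 12 and 0, and the combination 0, 4 and 8. Every brivanib library lay above every vehicle library, at a depth where 0 fragments allows up to 0.117 to 0.153 FPKM. Every one also lay above every combination library, but hardly: brivanib 3 was at 0.412 FPKM (10 fragments) and combination 4 at 0.409 (8 fragments). The share of all genes with groups apart in this way was not counted. Under the alternative with no filter on low values brivanib against vehicle was 0.51 ± 0.15 (limma adjusted p = 0.214). Fgf13 had 0 to 6 fragments and Fgf10, a mesenchymal ligand of Fgfr2, 0 to 11 per library, too few to order the groups.

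Cisplatin alone was compared with vehicle to ask which ligands changed with the platinum drug. Of the 6 tested ligands 0 passed an adjusted p under 0.05, and 1 (Pgf) had an unadjusted p under it by limma. Over all genes 27 of 14246 passed, which is 0.19%, and voom on recovered fragments called 0 ligands and 0 genes. Values were lower for Vegfa, Vegfb, Pgf and Fgf7 and higher for Vegfc and Fgf1.

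Brivanib alone was compared with vehicle to ask whether ligands changed while their receptors were inhibited. Of the 6 tested ligands 0 passed with limma and 0 with voom, and none had an unadjusted p under 0.05, against 258 of all genes, or 1.81%. The widest intervals were those of Pgf, from -1.45 to 1.16, and of Vegfa, from -0.42 to 1.05. Without brivanib 3 and 5, which leaves brivanib 2 as the lone library of its group, assumed to vary like the others, Vegfa was 1.03 ± 0.28. Pgf was 1.29 ± 0.55 there, against -0.14 ± 0.60 with all libraries.

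The combination was compared with vehicle and with each drug alone. Against vehicle 0 of 6 ligands passed with limma or voom and 0 had an unadjusted p under 0.05, while 333 genes, or 2.34%, passed. Against cisplatin 0 of 6 ligands and 0 genes, or 0%, passed with limma, 960 genes had an unadjusted p under 0.05, and voom called 0. Vegfa was 0.30 ± 0.34 and Pgf 0.37 ± 0.60 there (limma adjusted p = 0.922 and 0.956).

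Against brivanib 0 of 6 ligands passed with limma and with voom, 1 (Fgf1) had an unadjusted p under 0.05, and 551 genes, or 3.87%, passed. Here the outcome rested on brivanib 3. Without brivanib 3 the combination was lower in Vegfa by -1.03 ± 0.23 (limma adjusted p = 0.0387) and higher in Fgf1 by 0.96 ± 0.23 (adjusted p = 0.0422), so 2 ligands passed. With brivanib 3 and 5 both left out, Vegfa was -1.28 ± 0.28 and Pgf -2.36 ± 0.55. That sets the combination against brivanib 2 alone, the library with the highest Vegfa (43.7 FPKM) and the highest Pgf (17.5 FPKM), and was chosen after seeing the data. Over the alternatives limma adjusted p ran from 0.0387 to 0.942 for Vegfa and from 0.0422 to 0.885 for Fgf1, and it reached 0.863 for Pgf.

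The interaction asked whether brivanib differed in its effect with and without cisplatin. Of the 6 ligands 0 passed with limma and with voom and 0 had an unadjusted p under 0.05. Over all genes 20, or 0.14%, passed with limma and 0 with voom. The values ran from -0.20 (Vegfc) to 0.53 ± 0.39 (Fgf1).

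**Figure D4:**
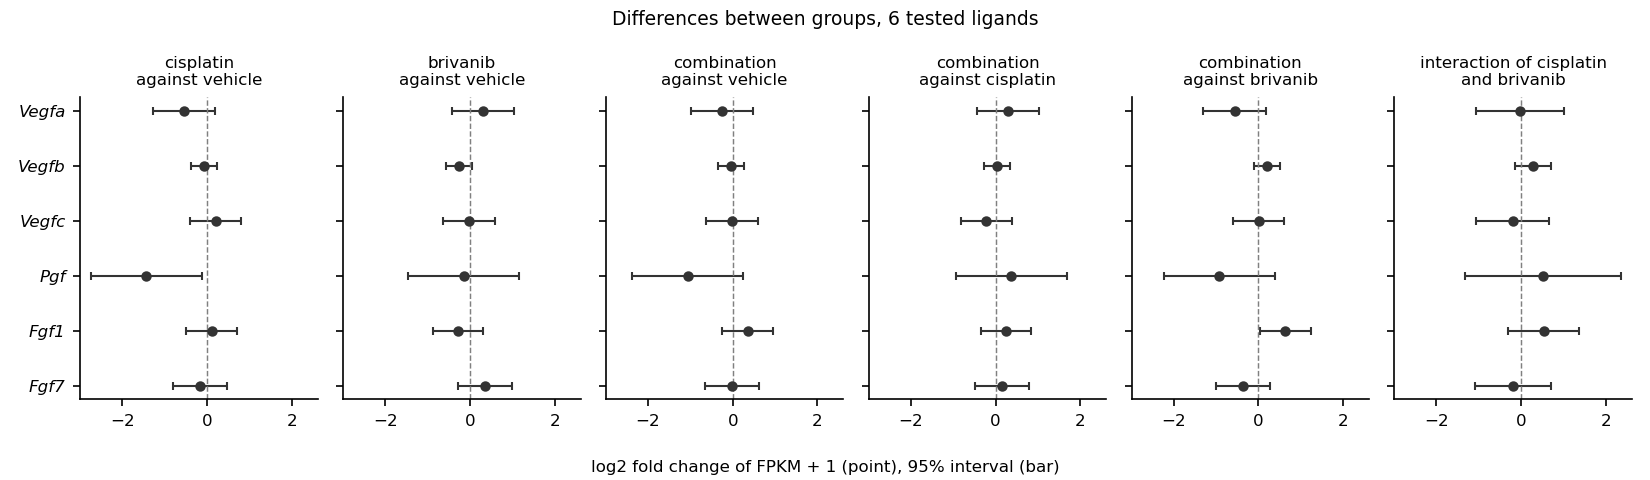
Log2 fold changes of the 6 tested ligands in the 5 comparisons and the interaction, with 95% intervals. Pgf in cisplatin against vehicle (-2.74 to -0.13) and Fgf1 in combination against brivanib (0.04 to 1.23) are the intervals that leave out 0.

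Across libraries, the 6 tested ligands were set beside a list of hypoxia response genes. The list of 20 genes, glycolytic enzymes and oxygen sensors among them and none of the ligands, had a score (mean log2(FPKM + 1)) of 4.55 in cisplatin 3 to 6.23 in brivanib 2, with brivanib 5 at 5.62 and brivanib 3 at 4.76. Over the 12 libraries Vegfa followed it with Pearson's r = 0.945 (permutation p = 2e-05, adjusted over 57 relations 0.00057) and Spearman's rho = 0.923 (adjusted permutation p = 0.00399). Pgf followed it with r = 0.937 (permutation p = 2e-05, adjusted 0.00057) and rho = 0.846 (adjusted permutation p = 0.0178). Without brivanib 2 and 5, the libraries farthest from the median score, r was 0.846 for Vegfa and 0.926 for Pgf. After group means were taken away r was 0.917 and 0.937, and without brivanib 3 and 5 it was 0.937 and 0.940.

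Fgf7 had r = 0.735 with the list (permutation p = 0.00518, adjusted 0.0328) and rho = 0.706 (adjusted permutation p = 0.106). Its r was 0.423 without brivanib 2 and 5, and thus weaker without them. After group means were taken away it was 0.671, and without brivanib 3 and 5 it was 0.692. Vegfc went the other way, with r = -0.771 (permutation p = 0.00293, adjusted 0.0328), rho = -0.692 (adjusted permutation p = 0.11), and r = -0.647 without brivanib 2 and 5. Fgf1 had r = -0.763 (permutation p = 0.00384, adjusted 0.0328), rho = -0.748, and r = -0.375 without them. Vegfb had r = 0.061 with the list, but -0.725 with the 10 fibroblast markers (permutation p = 0.00858, adjusted 0.0408) and rho = -0.769 (adjusted 0.057). Without brivanib 2 and 3, the farthest in that score, r was -0.813, and without brivanib 3 and 5 it was -0.506.

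**Figure D5:**
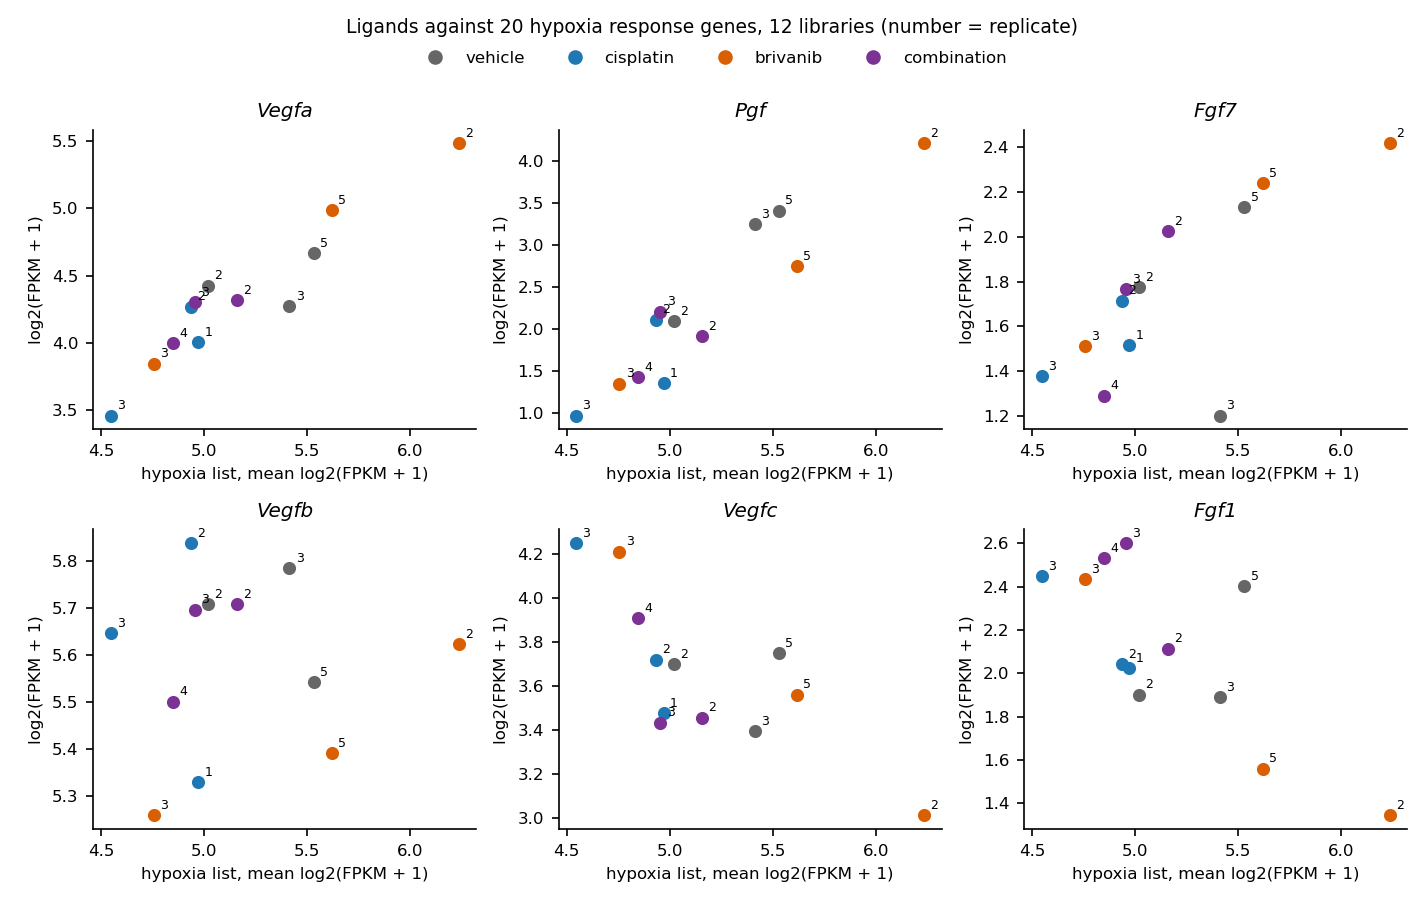
Log2(FPKM + 1) of 6 ligands against the mean log2(FPKM + 1) of 20 hypoxia response genes, 1 point per library with its replicate number. Vegfa and Pgf climb with the score (r = 0.945 and 0.937), Vegfc and Fgf1 go down (r = -0.771 and -0.763), and Vegfb does neither (r = 0.061).

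Among the ligands themselves Vegfa went with Pgf (r = 0.882, permutation p = 0.00017, adjusted 0.00323) and with Fgf7 (r = 0.843, permutation p = 0.00033, adjusted 0.0047). By rank, rho was 0.839 and 0.867 (adjusted permutation p = 0.0178 and 0.0148). Without cisplatin 3 and brivanib 2, the farthest in Vegfa, r was 0.734 and 0.786. Vegfa went against Vegfc (r = -0.764, permutation p = 0.00468, adjusted 0.0328) and against Fgf1 (r = -0.748, permutation p = 0.00445, adjusted 0.0328). By rank these did not pass, with rho of -0.608 and -0.615 (adjusted permutation p = 0.177 and 0.175). Without the same libraries r was -0.394 and -0.539. All points share library and depth, and each FPKM is relative to a scaling total of its library.

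The genes most like each ligand over the 12 libraries, by Pearson's r on log2(FPKM + 1), were picked from all tested genes and are a description. For Vegfa they were Hk2 (0.944), a hexokinase, Gpi1 (0.930), a glycolytic isomerase, and Ero1l (0.928), an oxidase of the endoplasmic reticulum. For Pgf they were Slc5a3 (0.968), a myo-inositol transporter, Egln3 (0.963), an oxygen-sensing hydroxylase, and Npepps (0.957), an aminopeptidase. For Fgf7 they were Gys1 (0.916), the muscle form of glycogen synthase, Ldha (0.864), lactate dehydrogenase A, and Vegfa (0.843). The hypoxia list holds Hk2, Ero1l, Egln3 and Ldha among these. For Vegfc they were Tle1 (0.925), a corepressor, Lrrc57 (0.918) and Exoc7 (0.916), an exocyst subunit. Fgf1 was most like Chek2 (0.921), a DNA damage kinase, Gucd1 (0.909) and Med22 (0.908), a Mediator subunit, and Vegfb most like Slc35e3 (0.896), Nptx1 (0.889) and Zfp598 (0.871).

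Promoter windows from RefSeq (GRCm38.p6, 250 bases before to 50 after a gene's start) were found for 9 of the 10 ligands, 14 windows in all. Those of the 3 ligands that went together are shown, with capitals for each match to GGGCGG, the GC box, on either strand. The core of the hypoxia response element, ACGTG, was also searched on both strands and was not in these 3 windows. An element more than 250 bases before the start would be missed, so the search cannot tell whether a gene has one.
Vegfa, chr17:46032328-46032627, minus strand: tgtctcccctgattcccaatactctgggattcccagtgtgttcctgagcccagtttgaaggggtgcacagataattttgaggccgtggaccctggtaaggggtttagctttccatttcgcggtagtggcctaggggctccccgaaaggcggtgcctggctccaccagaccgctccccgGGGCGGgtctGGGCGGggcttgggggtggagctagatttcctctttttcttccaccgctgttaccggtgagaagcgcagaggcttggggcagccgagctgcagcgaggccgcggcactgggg
Pgf, chr12:85177264-85177563, minus strand: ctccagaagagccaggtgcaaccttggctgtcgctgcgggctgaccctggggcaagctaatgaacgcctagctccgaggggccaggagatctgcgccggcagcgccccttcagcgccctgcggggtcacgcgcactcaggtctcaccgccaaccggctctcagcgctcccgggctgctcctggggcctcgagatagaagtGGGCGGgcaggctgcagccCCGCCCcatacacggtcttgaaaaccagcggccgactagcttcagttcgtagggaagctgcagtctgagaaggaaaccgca
Fgf7, chr2:126034408-126034707, plus strand: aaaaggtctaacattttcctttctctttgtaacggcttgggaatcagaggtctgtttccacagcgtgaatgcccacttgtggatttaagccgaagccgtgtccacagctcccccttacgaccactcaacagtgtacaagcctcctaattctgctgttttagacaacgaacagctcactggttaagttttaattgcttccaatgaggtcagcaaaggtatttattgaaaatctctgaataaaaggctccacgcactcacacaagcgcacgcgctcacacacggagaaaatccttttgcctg

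The printed windows of Vegfa and Pgf held 2 GC boxes each and that of Fgf7 held 0. A second Vegfa window (chromosome 17, 46025114 to 46025413) held 1 GC box and 1 ACGTG, and a second Pgf window (chromosome 12, 85175933 to 85176232) held 0 of both. GGGCGG was in 10 of the 14 ligand windows and ACGTG in 1, against 35.66% and 19.62% of 32851 windows of all genes. Windows of the same ligand are not independent, and GC content was not matched. It was 62.0% and 66.0% in the printed windows of Vegfa and Pgf and 45.7% in that of Fgf7, beside a median of 52.7% over all windows. The share with GGGCGG can therefore not be read as a trait of the ligands.

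The receptors were measured as background. Fgfr1 was the highest, at 152.7 ± 11.02 FPKM in vehicle, 141.7 ± 29.0 in cisplatin, 116.5 ± 14.5 in brivanib and 133.9 ± 18.8 in the combination (SD, n = 3). Its libraries were at 165.3, 148.4 and 144.5 FPKM in vehicle and at 133.3, 107.8 and 108.5 in brivanib, with no overlap, a split whose share over all genes was not counted. Brivanib against vehicle was -0.39 ± 0.15 (limma adjusted p = 0.323). The coreceptor Nrp2 was at 51.2 ± 3.54 FPKM in vehicle and Nrp1 at 17.01 ± 4.01, while the kinases Flt1 and Kdr were at 5.26 ± 1.26 and 3.92 ± 0.266 and Flt4 at 0.580 ± 0.147. Fgfr2 averaged 0.0851 and Fgfr3 0.0656 FPKM over the 12 libraries, and Fgfr4 was at 0 in all. Kdr was at 4.81 ± 1.56 FPKM in brivanib and 2.91 ± 0.819 in the combination, a difference of -0.56 ± 0.21 (limma adjusted p = 0.157). Of 12 receptor genes 6 were tested and 0 passed in any comparison, with an adjusted p of at least 0.157.

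Of the 17 other ligands of the families, 2 were tested, Vegfd, a relative of Vegfc, and the intracellular Fgf11, and 0 passed in any comparison. Vegfd averaged 25.6 FPKM over the 12 libraries, above Vegfa in the mean, and was at 27.0 ± 0.774 in vehicle, 30.2 ± 5.96 in cisplatin, 21.1 ± 5.82 in brivanib and 24.1 ± 7.99 in the combination.

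Genes that answer to the ligands were taken as lists. Of the 15 tested FGF and ERK feedback genes, such as the Spry and Dusp inhibitors, 0 passed in any comparison, with a median of -0.02 for brivanib against vehicle beside -0.01 over all genes. Of 11 VEGF-responsive endothelial genes 0 passed for either drug alone against vehicle, and the medians were -0.36 for cisplatin and -0.08 for brivanib. For the combination against vehicle 1 passed, the adhesion molecule Mcam, beside 2.34% of all genes. Mcam fell from 19.3 ± 3.63 to 9.59 ± 1.65 FPKM (-0.93 ± 0.20, limma adjusted p = 0.039). That call was lost in 14 of 30 alternatives, among them without any 1 of the vehicle or combination libraries. The median was -0.46 beside 0.04 over all genes. Against brivanib 2 passed, Mcam and the netrin receptor Unc5b, beside 3.87% of all genes. Unc5b fell from 17.6 ± 0.856 to 11.8 ± 0.830 FPKM (-0.54 ± 0.12, limma adjusted p = 0.0292). Without brivanib 3 and 5, which leaves brivanib 2 alone in its group, Unc5b was -0.62 ± 0.17 and Mcam -1.05 ± 0.27. With all libraries Mcam was -0.86 ± 0.205. Of the 10 endothelial markers 1 passed for the combination against brivanib, Tek, the angiopoietin receptor, and 0 passed in the other comparisons. Tek fell from 1.64 ± 0.542 to 0.422 ± 0.213 FPKM (-0.88 ± 0.21, limma adjusted p = 0.043), a call lost in 21 of 29 alternatives. Without brivanib 3 and 5 it was -0.73 ± 0.28. The summed FPKM of the endothelial markers was 121.3 to 139.0 in vehicle, 103.5 to 162.6 in cisplatin, 104.3 to 153.4 in brivanib and 96.4 to 110.9 in the combination, and their part in the fall of Mcam, Unc5b and Tek was not tested.

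Of the genes that store, release or process the ligands, 15 were tested, and most did not pass in any comparison. For brivanib against vehicle 2 of 15 passed, beside 1.81% of all genes, the sulfatases Sulf1 and Sulf2, which trim heparan sulfate outside the cell. Sulf1 rose from 0.517 ± 0.774 to 9.77 ± 3.14 FPKM (2.90 ± 0.38, limma adjusted p = 0.00348) and Sulf2 from 2.15 ± 0.557 to 5.91 ± 0.480 (1.15 ± 0.17, limma adjusted p = 0.00485). For the combination against vehicle 2 of 15 passed, beside 2.34% of all genes, Sulf2 at 4.94 ± 0.857 FPKM (0.92 ± 0.17, limma adjusted p = 0.0218) and Ccbe1, a secreted factor that helps to process VEGF-C, which rose from 28.9 ± 4.03 to 65.5 ± 20.9 FPKM (1.11 ± 0.21, limma adjusted p = 0.0235). Against brivanib 2 of 15 passed, beside 3.87% of all genes, Sulf1, at 1.43 ± 0.449 FPKM in the combination (-2.12 ± 0.38, limma adjusted p = 0.0142), and the proteoglycan Sdc3, which fell from 18.2 ± 2.61 to 6.09 ± 2.56 FPKM (-1.50 ± 0.31, limma adjusted p = 0.0236). For cisplatin against vehicle 0 of 15 passed. Without brivanib 3 and 5, which leaves brivanib 2 alone in its group, Sulf1 was 3.36 ± 0.55 and Sulf2 1.03 ± 0.25 in brivanib against vehicle. Sdc3 was -1.72 ± 0.47 in the combination against brivanib there. The rise of Sulf2 and that of Ccbe1 in the combination were lost without vehicle 3, vehicle 5 or combination 3 for Sulf2, with adjusted p of up to 0.0891, and without any vehicle library, combination 2 or combination 3 for Ccbe1, with adjusted p of up to 0.092.

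Markers of host cells moved in the same comparisons. Of the 10 fibroblast markers 4 passed for brivanib against vehicle, beside 1.81% of all genes. Among them was Col1a1, a collagen chain, from 13.8 ± 14.5 to 314.0 ± 145.4 FPKM (limma adjusted p = 0.0118). Pi16 rose by 3.33 ± 0.29 (limma adjusted p = 0.000465). The summed FPKM of the 10 markers was 775.3 to 1277 in vehicle, 585.3 to 1093 in cisplatin, 1640 to 2155 in brivanib and 345.6 to 813.2 in the combination. The fibroblast score was 6.20 to 6.38 in brivanib and at most 5.34 in the other libraries. A fit with this score as a covariate can thus hardly tell score from group, and in it 0 genes passed in either comparison with brivanib. There brivanib against vehicle was 1.33 ± 0.59 for Sulf1 and 1.03 ± 0.35 for Sulf2 (limma adjusted p = 0.999 for both). The combination against brivanib was -0.53 ± 0.60 for Sulf1 (limma adjusted p = 0.913) and -0.97 ± 0.64 for Sdc3 (adjusted p = 0.849). The part of fibroblasts in these changes was not tested. Of the pericyte and smooth muscle markers 2 of 6 tested passed, Tagln and Acta2, of the lymphatic markers both that were tested, Pdpn and Lyve1, and of the macrophage markers 2 of 10, Cd163 and Cd68, all higher in brivanib. Without brivanib 3 and 5, which leaves brivanib 2 alone in its group, the values stayed above 0 and the SE grew. With 1 library this cannot show whether the rises hold. Col1a1 was 5.56 ± 1.25 (4.85 ± 0.835 with all libraries) and Lyve1 3.495 ± 0.83 (3.22 ± 0.54). Cd163 was 3.15 ± 0.66 (2.87 ± 0.44), Acta2 2.58 ± 0.61 (2.38 ± 0.42) and Cd68 1.24 ± 0.40 (1.30 ± 0.27). Over the alternatives Cd68 lost its call in 20 of 30, Acta2 in 8 of 30, Lyve1 in 7 of 30 and Cd163 in 4 of 29. Of the 6 lymphatic markers the other 4 were below the filter, with Ccl21a at 0 in all brivanib libraries and Prox1, the defining transcription factor, at 0 to 0.0468 FPKM there. Pdpn is also made by fibroblasts and Lyve1 by some macrophages. For the combination against brivanib 6 of 10 fibroblast, 4 of 6 pericyte and smooth muscle and both tested lymphatic markers passed, all lower in the combination. Without brivanib 3 and 5 Lyve1 was -2.44 ± 0.83 (-2.16 ± 0.54 with all libraries) and Pdgfrb -0.575 ± 0.24 (-0.75 ± 0.16). Dcn was -1.17 ± 0.28 there (-1.19 ± 0.19) and Tagln -2.24 ± 0.53 (-2.03 ± 0.36). The call of Lyve1 was lost in 20 of 30 alternatives, and with the fibroblast score as a covariate its value turned to 0.57 ± 0.67 (limma adjusted p = 0.918). For the combination against vehicle, beside 2.34% of all genes, 1 fibroblast marker (Dcn) and 1 pericyte marker (Rgs5) were lower. Higher were 1 macrophage marker (Cd163) and 1 of 7 tested adipocyte markers (Retn). All 7 had values above 0 there, with a median of 2.03 beside 0.04 over all genes. The summed FPKM of the 11 adipocyte markers was 12.7 to 13.8 in vehicle, 6.88 to 64.9 in cisplatin, 41.7 to 293.0 in brivanib and 91.7 to 311.4 in the combination. The part of adipocytes in changes of other genes was not tested. Of the 12 tested skeletal muscle markers 0 passed in any comparison, and of the keratinocyte markers 0 were tested. Of the 7 Schwann cell and nerve markers 1 was tested and 0 passed. Their summed FPKM was 3.34 to 3.74 in vehicle, 5.15 to 5.58 in cisplatin, 6.58 to 13.5 in brivanib and 4.67 to 5.48 in the combination.

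Of the hypoxia list 0 of 20 genes passed the threshold in any comparison. Its median was -0.36 for cisplatin against vehicle, where 2 of 20 values were above 0, 0.21 for brivanib against vehicle, where 16 were, and -0.49 for the combination against brivanib, where 2 were, beside 0.07, -0.01 and 0.04 over all genes. For the combination it was -0.28 against vehicle, where 2 were above 0, and 0.15 against cisplatin, where 17 were, and the median of the interaction was -0.03, with 10 above 0. Scaled to equal FPKM totals, which moved the median of all genes to -0.34, the list's median for brivanib against vehicle was -0.14, and the other 3 scalings kept it above 0, at 0.12 to 0.21. Scaling to equal totals lowers brivanib 5 most, whose FPKM total was 921510 against 471828 to 527657 in the other libraries. For the combination against brivanib equal totals moved the median of all genes to 0.30 and that of the list to -0.20, and for the interaction they moved the list to 0.33.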

How the data were processed

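RNA of 12 LLC tumours was sequenced on a BGISEQ-500. The authors deposited transcript FPKM values, estimated with RSEM after Bowtie2 per the labels' design text; the submitters' processing notes give Bowtie2 2.2.5, RSEM 1.2.12, HISAT and Bowtie. The design text names mm10 and the notes mm9; 134952 of 135276 transcripts were found in GENCODE M21 on GRCm38, 98.46% with identical coordinates. RSEM divides fragments between overlapping transcripts, so transcript values are less certain than sums. Of the per-sample columns 1 matched no label and was not used, and 3 broken lines were dropped.

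FPKM was summed per gene over its transcripts. FPKM times length went in steps of 1 size, and 100% of the values up to 100 fragments were whole to a tolerance of 0.01, which gave the fragments per gene. Intervals and limits from fragments cover counting error only, as there are no molecular identifiers. The group means of all 12 libraries were fitted with limma 3.58.1 in R 4.3.3 to log2(FPKM + 1) for genes with a mean of at least 1 FPKM, with a variance trend and two-sided tests, adjusted by Benjamini-Hochberg over all genes tested at a threshold of 0.05. The procedure was tested on simulated data. Relations over libraries used 100000 permutations, two-sided.

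The members and gene lists were chosen with earlier results of these data known. Named were all 10 ligands, the 3 most alike genes of each tested ligand, a receptor panel and, from each list and comparison, up to 4 genes past the threshold by the size of the statistic, or the 1 with the smallest p. Some list genes that this rule allows were not named. Alternatives covered the pseudocount, filter, scaling, voom on recovered fragments, the samples in the fit, marker scores as covariates, a block for the replicate number, coding transcripts only and each library left out.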

Additional observations from a re-analysis of the deposited data

Results flagged for a closer look

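By limma's interaction term, the brivanib difference was unequal between tumours given cisplatin and tumours not given it for 3 marker genes of host cells and for 0 of the 6 tested ligands. Pi16, a fibroblast gene, was at 0.165 ± 0.222 FPKM in vehicle, 10.8 ± 3.02 in brivanib, 0.571 ± 0.576 in cisplatin and 0.449 ± 0.308 in the combination (SD, n = 3), an interaction of -3.40 ± 0.41 (limma adjusted p = 0.0129), which was lost in 7 of 29 alternatives. Fbln1, a matrix protein, had an interaction of -3.00 ± 0.45 (limma adjusted p = 0.0275), which was lost in 17 of 29. Without brivanib 3 and 5, which leaves brivanib 2 alone in its group, it was -3.43 ± 0.55. Pdpn, a glycoprotein of lymphatic vessels and fibroblasts, had an interaction of -2.68 ± 0.45 (limma adjusted p = 0.0479), and this call was lost in 26 of 30 alternatives. Without brivanib 3 and 5 it was -2.77 ± 0.52. With voom on recovered fragments all 3 calls were lost (adjusted p = 0.112 for Pi16, 0.109 for Fbln1 and 0.109 for Pdpn). Over all genes 0 interactions passed with voom, and 0 with a pseudocount of 0.1.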

How the results depend on the processing

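The count of ligands past the threshold was 0 in every comparison and stayed 0 under 30 alternatives, 1 of them chosen after seeing the data, except in the combination against brivanib. There it was 2 without brivanib replicate 3, so leaving out 1 library gave a range of 0 to 2. It also moved without brivanib replicates 3 and 5, the alternative chosen after seeing the data, which leaves 1 brivanib library. The counts over all genes moved more: they ran from 0 to 100 for cisplatin, 0 to 459 for brivanib and 1 to 525 for the combination against vehicle, from 0 to 5 for the combination against cisplatin, 0 to 730 against brivanib and 0 to 44 for the interaction. Counts of 0 came with voom for cisplatin against vehicle and with the fibroblast score as a covariate for brivanib against vehicle and the combination against brivanib, and the count of 1 with the adipocyte score. The fibroblast score was higher in every brivanib library than in any other library, so that fit can hardly tell score from group. The adipocyte score was 0.493 to 0.520 in vehicle and 2.21 to 2.47 in the combination, so the same limit holds there. The 37 named changes of list genes lost their call in 304 of 1096 values and turned sign in 1. Rescaling to equal FPKM totals, which lowers brivanib 5 most, moved the median of all genes to -0.34 for brivanib against vehicle and 0.30 for the combination against brivanib and the interaction. With ribosomal-like features left out of the totals it was -0.10 for brivanib against vehicle and 0.06 for the combination against brivanib and the interaction. Same-numbered libraries of different groups had correlations of -0.16 to 0.21 (median -0.013), 2 of 13 over 0.1. Libraries of different numbers were not set beside them, so a pairing by number was neither shown nor excluded. With the replicate number as a block 0 ligands passed, and the counts over all genes were 0, 194 and 35 against vehicle (cisplatin, brivanib, combination), 0 and 168 for the combination against cisplatin and brivanib, and 1 for the interaction. The edgeR test on recovered fragments was not run. Depth limits Fgf2, Fgf10, Fgf13 and Fgf18.

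Of 1068 values of the ligands under the alternatives, 91 had the other sign from the reported value, none of them past the threshold on either side, and the cause was not tested. Sign changes of the list genes Egln1, Fgf11, Spry4 and Lyve1 are given among them, of which Lyve1 had passed the threshold. With equal FPKM totals these were -0.043 (Vegfa) and -0.063 (Egln1) for brivanib against vehicle, and 0.11 (Fgf11) for combination against brivanib, and 0.34 (Vegfa), 0.14 (Vegfc) and 0.073 (Fgf7) for the interaction. With median-of-ratios scaling these were -0.03 (Vegfc) for combination against brivanib, and 0.004 (Vegfa) for the interaction. With quantile normalization these were -0.053 (Vegfc) for combination against brivanib, and 0.001 (Vegfa) for the interaction. With equal totals without ribosomal-like features these were 0.067 (Vegfa) for the interaction. With voom on recovered fragments these were -0.045 (Vegfc) for combination against brivanib, and 0.12 (Vegfa) for the interaction. With the replicate block these were 0.022 (Vegfb) for cisplatin against vehicle, and 0.34 (Fgf7) for combination against vehicle, and -0.041 (Vegfb) for combination against cisplatin, and -0.12 (Vegfc) for combination against brivanib, and 0.13 (Vegfa) for the interaction. With skeletal muscle score as a covariate these were 1.05 (Pgf) for brivanib against vehicle, and 0.001 (Vegfb) and 0.041 (Fgf7) for combination against vehicle, and 0.20 (Vegfc) and -0.69 (Pgf) for the interaction. With adipocyte score as a covariate these were 0.01 (Vegfb) and -0.017 (Fgf1) for cisplatin against vehicle, and 0.90 (Pgf) for brivanib against vehicle, and 0.53 (Vegfa), 0.27 (Vegfb), 0.31 (Pgf), -0.11 (Fgf1) and 0.46 (Fgf7) for combination against vehicle, and -0.094 (Fgf1) for combination against cisplatin, and -0.078 (Vegfc) for combination against brivanib. With fibroblast score as a covariate these were 0.23 (Vegfb) and 0.61 (Pgf) for brivanib against vehicle, and -0.036 (Vegfb) for combination against cisplatin, and -0.28 (Vegfb), -0.04 (Spry4) and 0.57 (Lyve1) for combination against brivanib, and 0.057 (Vegfa), -0.27 (Vegfb), -0.35 (Pgf) and 0.11 (Fgf7) for the interaction. Without the libraries high in muscle markers these were 0.064 (Vegfb) for cisplatin against vehicle, and 1.29 (Pgf) for brivanib against vehicle, and 0.057 (Vegfc) for combination against vehicle, and -0.14 (Vegfb) and -0.018 (Fgf7) for combination against cisplatin, and -0.024 (Vegfb) and 0.12 (Fgf11) for combination against brivanib, and -0.088 (Vegfb), 0.29 (Vegfc) and -1.02 (Pgf) for the interaction. With protein-coding transcripts only these were 0.007 (Vegfc) for combination against vehicle. Without brivanib replicates 3 and 5 these were 1.29 (Pgf) for brivanib against vehicle, and 0.051 (Fgf11) for combination against brivanib, and 0.39 (Vegfc) and -0.92 (Pgf) for the interaction. Leaving out 1 library at a time changed the sign in the following. For brivanib against vehicle the ranges were -0.33 to 0.27 (Vegfc), -0.86 to 0.56 (Pgf) and -0.039 to 0.78 (Vegfa). For combination against vehicle the ranges were -0.17 to 0.069 (Vegfc), -0.26 to 0.20 (Fgf7) and -0.11 to 0.024 (Vegfb). For the interaction the ranges were -0.48 to 0.33 (Vegfa), -0.47 to 0.055 (Fgf7), -0.49 to 0.11 (Vegfc) and -0.20 to 1.23 (Pgf). For cisplatin against vehicle the ranges were -0.42 to 0.047 (Fgf7), -0.19 to 0.064 (Vegfb), -0.015 to 0.37 (Vegfc) and -0.032 to 0.28 (Fgf1). For combination against cisplatin the ranges were -0.11 to 0.15 (Vegfb), -0.39 to 0.001 (Vegfc) and -0.008 to 0.36 (Fgf7). For combination against brivanib the ranges were -0.29 to 0.31 (Vegfc).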
